A study of Mus musculus with 12 samples.

Results

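The 35 genes described here make up a type I interferon response module: genes that cells switch on when an interferon of the alpha or beta kind binds its receptor. They were taken by gene symbol from a table of 44345 genes, and all 35 were found in it. The rule goes by symbol and uses no value of the table. RNA had been sequenced from mouse sciatic dorsal root ganglia (DRG, levels L4 to L6), which house the sensory neurons whose axons run in the sciatic nerve. All mice were C57BL/6 and 6 to 8 weeks old, and each of the 12 libraries pooled the ganglia of 2 mice, with 3 libraries in each of 4 groups. The IPA crush group was gavaged once a day with indole-3-propionic acid (IPA, a tryptophan metabolite of gut bacteria) at 20 mg/kg in PBS over 10 days, then had the sciatic nerve crushed and received IPA for 3 days more. The vehicle crush group received PBS before the crush, and the labels leave unclear what it received in the 3 days after it. The IPA intact and vehicle intact groups had the 10 days of IPA or PBS and no injury. No sham-operated group is described, so surgery and crush cannot be told apart. Nor do the labels say when the intact groups were collected, so the groups may also differ in age by the 3 days.

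Type I interferons signal through a receptor built from Ifnar1 and Ifnar2 and the kinases Jak1 and Tyk2. These activate a complex that holds Stat2 and Irf9 and binds a promoter element called the interferon-stimulated response element. The genes under it sense foreign nucleic acids, block viral RNA and translation, attach the ubiquitin-like protein Isg15 to other proteins, and dampen the signal itself. Neurons, satellite glia, Schwann cells and macrophages of a ganglion can all respond to interferon, and RNA of whole ganglia does not tell them apart.

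The deposited values carry the name FPKM but behave as CPM, reads scaled to a common library size (CPM-like units), with no gene length divided out, so levels are compared between genes only after division by transcript length. 1 read was worth 0.0130 to 0.0199 CPM-like units, at 40938034 to 62501969 reads per library. All 35 genes passed the filter of at least 0.5 CPM-like units in at least 3 libraries, as did 15603 genes in all. Oas3 had the fewest reads, with 10 to 55 reads per library, and Stat2 the most, with 3321 to 5924. Log2 changes below are limma-trend estimates on log2(value + 0.5) with their standard errors (SE), from 1 fit of all 12 libraries. A gene is said to pass, to rise or to fall where its p, adjusted by Benjamini and Hochberg's method across the 15603 genes, was under 0.05. Replicates are separate pools of mice, and changes of low genes are understated on this scale.

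Per kilobase of longest transcript, the vehicle intact mean was highest for Lgals3bp at 26.3, Stat2 at 14.4 and Oasl2 at 13.1 CPM-like units. It was lowest for Oas3 at 0.0681, Mx1 at 0.188, Oas2 at 0.207 and Ifi44 at 0.384 units per kilobase. The genes were therefore present in uninjured ganglia, at levels that spanned a wide range. The libraries fit a tissue rich in neurons: 8 neuron markers, none at 0, summed to 11890 to 13820 CPM-like units per library.

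**Figure D1:**
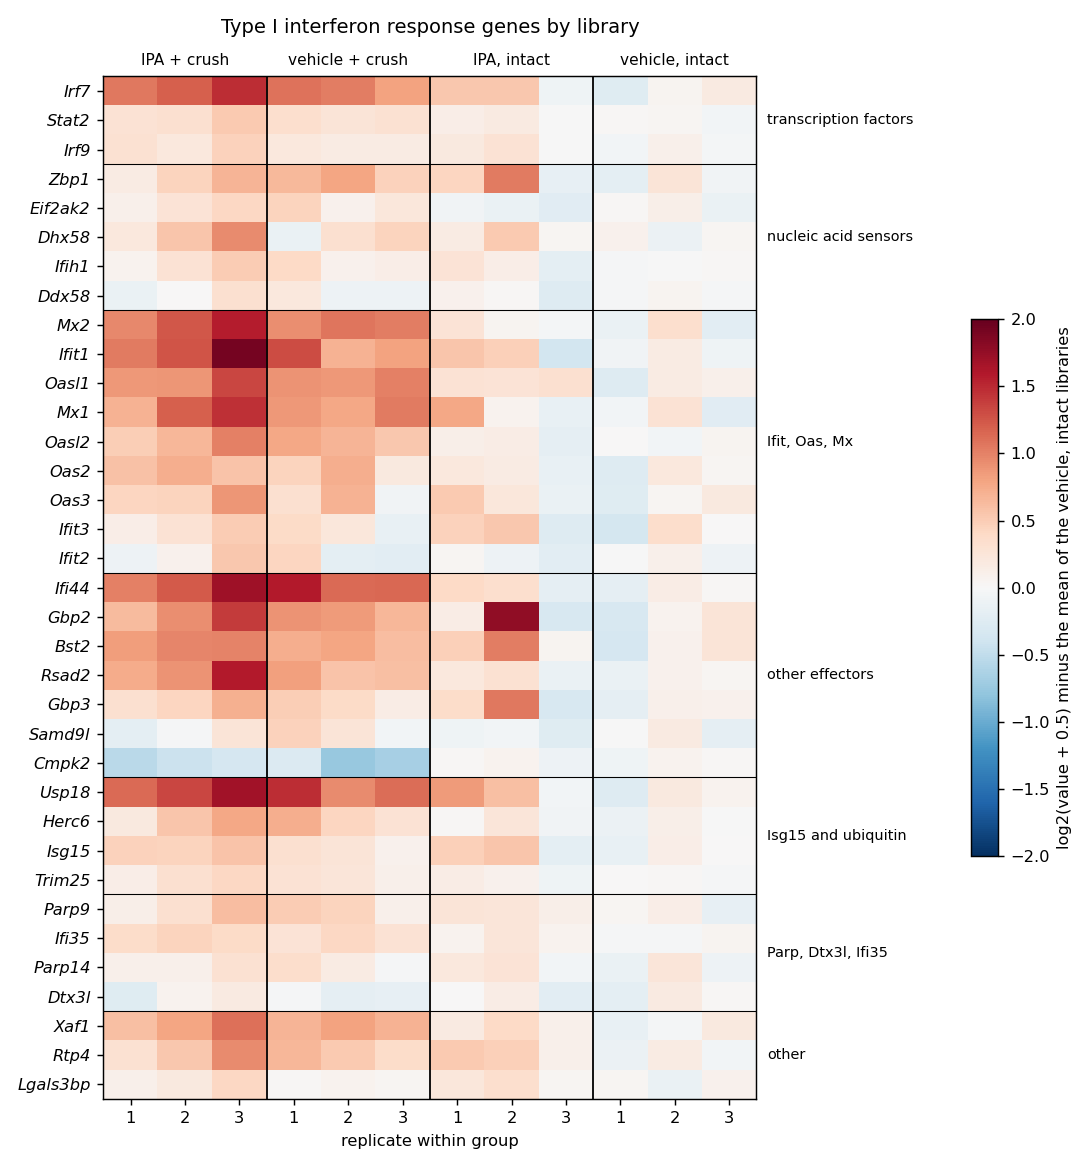
Rows are the 35 genes by role, columns the 12 libraries by group, and colour the log2(value + 0.5) of a library minus the mean of the 3 vehicle intact libraries. Crush libraries are red for most genes and blue for Cmpk2, and whole columns shift together, such as the low IPA intact replicate 3 and the high IPA crush replicate 3.

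Within a group the genes moved as a block by library. In the IPA intact group, replicate 3 was the lowest of the 3 libraries in 34 of the 35 genes, against 37.4% of all genes tested, and replicate 2 the highest in 20, against 37.6%. In the IPA crush group, replicate 3 was the highest in 33 of 35, against 49.2% of all genes, and replicate 1 the lowest in 32 of 35, against 42.2%. In the vehicle crush group, replicate 1 was the highest in 24 of 35, against 42.7%, and replicate 3 the lowest in 18, against 27.1%. In the vehicle intact group, replicate 2 was the highest in 25 of 35, against 34.4%, and replicate 1 the lowest in 22 of 35, against 31.0%. Relative to the vehicle intact mean, the median log2 level of the 35 genes was 0.30, 0.45 and 0.68 in IPA crush replicates 1 to 3 and 0.46, 0.43 and 0.29 in vehicle crush replicates 1 to 3. It was 0.22, 0.27 and -0.13 in IPA intact and -0.11, 0.10 and 0.018 in vehicle intact replicates 1 to 3. Both IPA groups thus differ among their own libraries by about as much as the groups differ from each other, and results that rest on these libraries are given with and without them.

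The comparison of crushed with intact nerve asks how the genes stood 3 days after injury. Under IPA, 16 of the 35 genes rose and 1, Cmpk2, fell, while 21.2% of all genes tested rose and 22.5% fell. Under vehicle, 20 rose and Cmpk2 fell again, while 23.6% of all genes rose and 24.4% fell. In either direction that made 17 genes under IPA, where 43.6% of all genes passed, and 21 under vehicle, where 48.0% did. The median log2 change of the 35 was 0.28 under IPA, where that of all genes was -0.016, and 0.34 under vehicle, where that of all genes was -0.0045. The sign was positive in 33 of 35 genes under each treatment, as it was in 47.7% of all genes under IPA and 49.4% under vehicle. The 3 crush libraries lay above the 3 intact ones in 13 genes under IPA (27.2% of all genes did so) and in 21 under vehicle (25.4% of all genes). They lay below in Cmpk2 alone, against 30.8% of all genes under IPA and 26.0% under vehicle. The ganglia hold many cell types, and more cells of a type cannot be told apart from more RNA per cell; markers of macrophages and other cell types moved as well, with the values given further on.

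All 16 genes that passed higher under IPA also passed higher under vehicle: Eif2ak2, Herc6, Ifi35, Ifi44, Ifit1, Irf7, Mx1, Mx2, Oas2, Oasl1, Oasl2, Rsad2, Stat2, Trim25, Usp18 and Xaf1. Bst2, Parp9, Rtp4 and Zbp1 passed under vehicle and missed the threshold under IPA. Whichever single library of a comparison was left out, 12 genes stayed higher in both comparisons: Ifi35, Ifi44, Ifit1, Irf7, Mx1, Mx2, Oasl1, Oasl2, Rsad2, Stat2, Usp18 and Xaf1. Cmpk2 stayed lower in both. Under IPA, 3 calls were not stable: Herc6 was lost without IPA crush replicate 2 or 3 or IPA intact replicate 1 or 3, Trim25 without IPA crush replicate 2 or 3 or IPA intact replicate 3, and Oas2 without IPA intact replicate 3. With replicate 3 of both IPA groups left out together, a step chosen after seeing the data, 9 genes were higher, Cmpk2 was lower, and the median change was 0.060. These 10 calls are 28.6% of the 35 genes, where 35.2% of all genes were called. The 7 calls lost then were those of Eif2ak2, Herc6, Mx1, Oas2, Stat2, Trim25 and Usp18. Under vehicle, 7 calls were not stable, and the count was lowest, at 14 genes, without vehicle intact replicate 1, a share of 40.0% where 40.6% of all genes were called. That step lost Eif2ak2, Herc6, Oas2, Parp9, Rtp4, Trim25 and Zbp1. Leaving out vehicle crush replicate 1 lost Eif2ak2, Herc6, Parp9, Trim25 and Zbp1, and the remaining 16 calls were 45.7% of the 35 genes, where 53.3% of all genes were called. Leaving out vehicle crush replicate 2 lost Oas2, Parp9, Trim25 and Zbp1. Eif2ak2 and Zbp1 were lost without vehicle crush replicate 3, Trim25 without vehicle intact replicate 2, and Eif2ak2, Parp9, Trim25 and Zbp1 without vehicle intact replicate 3.

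**Figure D2:**
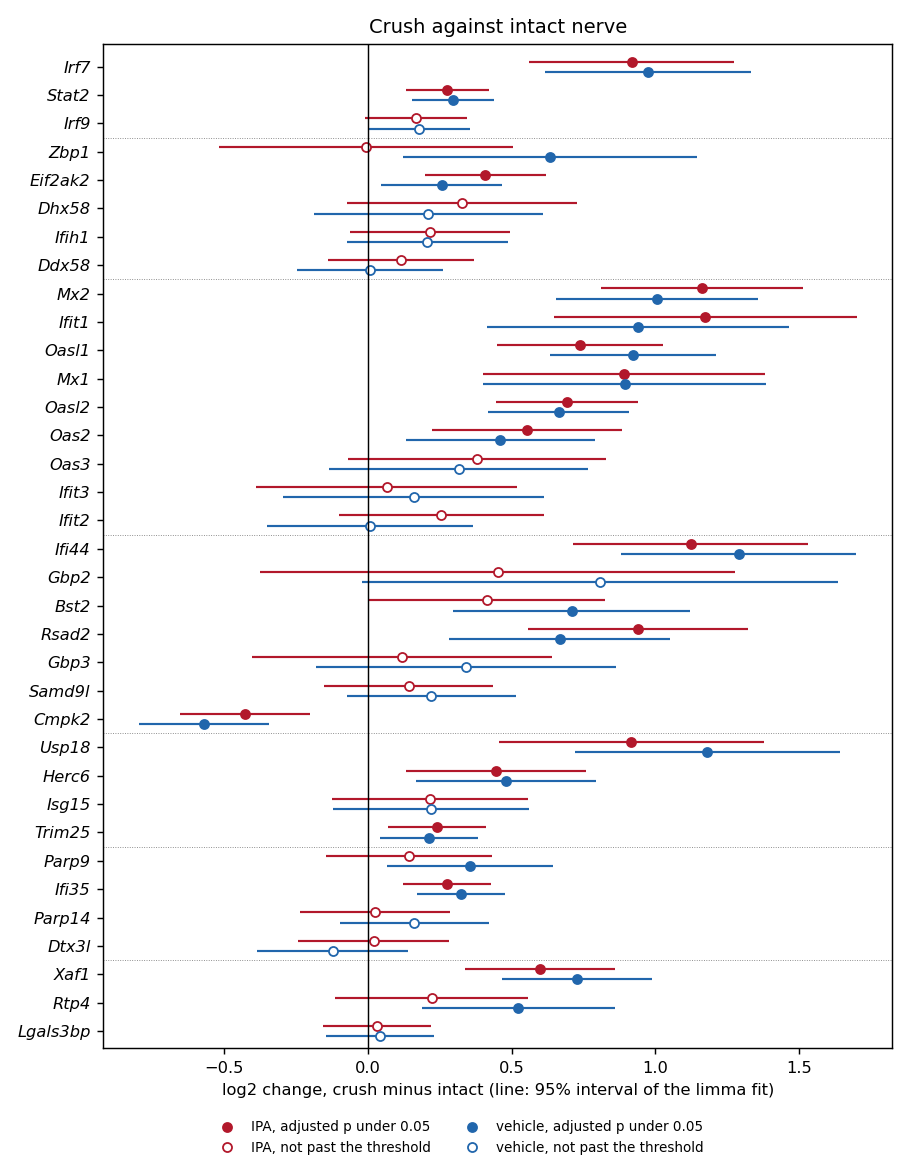
Each row is 1 gene, the horizontal axis is the log2 change of crush minus intact, and lines are 95% intervals of the limma estimate. Red marks the change under IPA and blue the change under vehicle, with filled points at an adjusted p under 0.05; the filled points lie right of 0 except those of Cmpk2.

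Among the transcription factors of the response, Irf7 moved most. Irf7 is itself induced by interferon and drives further interferon and antiviral gene expression. Irf7 was at 9.86, 10.9 and 13.3 in IPA crush and 6.70, 6.70 and 4.18 in IPA intact libraries, and at 10.1, 9.60 and 8.18 in vehicle crush and 3.70, 4.67 and 5.13 in vehicle intact libraries. All 6 crush libraries lay above all 6 intact ones, and the log2 change was 0.92 ± 0.17 under IPA (adjusted p = 0.000501) and 0.97 ± 0.17 under vehicle (adjusted p = 0.000272). Stat2 is the activating subunit of the complex that binds the response element. Values of Stat2 were 77.2, 79.2 and 91.6 in IPA crush against 69.4, 72.0 and 62.9 in IPA intact libraries, and 79.7, 75.4 and 78.2 in vehicle crush against 64.0, 65.0 and 60.8 in vehicle intact libraries. Again no crush library overlapped an intact one, but the change was small, at 0.28 ± 0.066 under IPA (adjusted p = 0.00400) and 0.30 ± 0.066 under vehicle (adjusted p = 0.00225). Irf9, the DNA-binding subunit of that complex, had 18.1, 17.0 and 20.2 in IPA crush and 16.8, 17.9 and 14.5 in IPA intact libraries, and 16.9, 16.3 and 16.3 in vehicle crush and 14.1, 15.6 and 14.1 in vehicle intact libraries. Its 95% interval was -0.011 to 0.35 under IPA and -0.0013 to 0.35 under vehicle, and neither passed. Irf7 overlaps Phrf1 on the other strand and Irf9 overlaps Rnf31 on the same strand, so reads of these neighbours may be shared, depending on how the authors counted.

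Of the 5 sensors of foreign nucleic acid, Eif2ak2 rose under both treatments and Zbp1 under vehicle. Of all genes tested, 21.2% rose under IPA and 23.6% under vehicle. Eif2ak2 encodes the kinase PKR, which stops translation when it meets double-stranded RNA. Eif2ak2 was at 28.6, 32.5 and 35.7 in IPA crush and 25.5, 24.2 and 22.7 in IPA intact libraries, and at 36.7, 28.5 and 31.4 in vehicle crush and 27.1, 28.9 and 24.4 in vehicle intact libraries. The vehicle groups overlapped, since the lowest vehicle crush value was under the highest vehicle intact one, and the change was 0.41 ± 0.10 under IPA (adjusted p = 0.00396) and 0.26 ± 0.10 under vehicle (adjusted p = 0.0435). Zbp1, which binds nucleic acids in the left-handed Z form and can trigger necroptosis, had 0.978, 1.30 and 1.62 in IPA crush against 1.28, 2.22 and 0.683 in IPA intact libraries. Under vehicle it had 1.57, 1.78 and 1.33 in crush libraries, against 0.655, 1.08 and 0.761 in intact ones. The highest of all 12 values belonged to IPA intact replicate 2. Its change was -0.0059 ± 0.24 under IPA (adjusted p = 0.987) and 0.63 ± 0.24 under vehicle (adjusted p = 0.0408). The RNA helicases Ddx58 (RIG-I), Ifih1 and Dhx58 did not pass under either treatment. For Ddx58 the interval was -0.14 to 0.37 under IPA and -0.25 to 0.26 under vehicle, for Ifih1 -0.064 to 0.50 and -0.073 to 0.49, and for Dhx58, which has an annotated antisense transcript, -0.073 to 0.73 and -0.19 to 0.61.

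The Ifit, Oas and Mx families encode the classic antiviral effectors, and 6 of these 9 genes rose under each treatment. The share of all genes that rose was 21.2% under IPA and 23.6% under vehicle. Mx1 and Mx2 belong to a family of dynamin-like GTPases that can trap viral components, and the annotation used here lists mouse Mx2 as a polymorphic pseudogene. Whether either gene makes a working protein in these mice cannot be read from RNA values. Mx2 was at 3.51, 4.38 and 5.64 in IPA crush and 2.00, 1.65 and 1.495 in IPA intact libraries, and at 3.40, 3.83 and 3.67 in vehicle crush and 1.39, 2.10 and 1.27 in vehicle intact libraries. In IPA crush libraries Mx1 stood at 1.33, 2.08 and 2.58, against 1.42, 0.679 and 0.512 in IPA intact libraries, and in vehicle crush libraries at 1.55, 1.43 and 1.80, against 0.578, 0.872 and 0.463 in vehicle intact libraries. For Mx2 every crush library lay above every intact one; for Mx1, IPA intact replicate 1 lay above IPA crush replicate 1. The change of Mx2 was 1.16 ± 0.16 under IPA (adjusted p = 6.07e-05) and 1.00 ± 0.16 under vehicle (adjusted p = 0.000187), and that of Mx1 0.89 ± 0.23 under IPA (adjusted p = 0.00609) and 0.89 ± 0.23 under vehicle (adjusted p = 0.00536). Both are low genes, with at most 310 and 147 reads in a library.

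Ifit1 recognises foreign RNA by its cap, and the 3 measured Ifit genes lie close together on chromosome 19. Values of Ifit1 were 33.3, 39.0 and 61.5 in IPA crush against 23.8, 22.5 and 12.4 in IPA intact libraries, and 40.4, 26.3 and 28.5 in vehicle crush against 15.2, 17.98 and 15.1 in vehicle intact libraries. All crush libraries were above all intact ones, and the change was 1.17 ± 0.25 under IPA (adjusted p = 0.00151) and 0.94 ± 0.25 under vehicle (adjusted p = 0.00609). Ifit2 was at 26.8, 30.6 and 42.0 in IPA crush and 29.7, 27.0 and 25.0 in IPA intact libraries, and at 38.9, 25.2 and 24.9 in vehicle crush and 28.8, 31.0 and 27.0 in vehicle intact libraries. For Ifit2 the groups overlapped throughout, at 0.26 ± 0.17 under IPA (interval -0.10 to 0.61) and 0.0065 ± 0.17 under vehicle (interval -0.35 to 0.36). Ifit3 had intervals of -0.39 to 0.52 under IPA and -0.30 to 0.61 under vehicle, and its values of 11.71, 13.1 and 15.4 in IPA crush and 14.7, 15.7 and 8.83 in IPA intact libraries overlapped. The genes of this family share sequence, so their reads may be split unevenly, and the differences between them were not tested.

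Oas enzymes make oligoadenylates that activate RNase L, which cuts RNA; Oasl1 and Oasl2 are their relatives. Oasl1 had 3.30, 3.32 and 4.73 in IPA crush and 3.36, 3.27 and 3.68 in vehicle crush libraries, against 2.03, 2.01 and 2.08 in IPA intact and 1.23, 1.82 and 1.72 in vehicle intact libraries. The IPA intact libraries lay within a narrow band, below every crush library, and the change was 0.74 ± 0.13 under IPA (adjusted p = 0.000534) and 0.92 ± 0.13 under vehicle (adjusted p = 7.07e-05). Values of Oasl2 were 57.8, 65.4 and 83.1 in IPA crush against 44.6, 45.5 and 36.2 in IPA intact libraries, and 70.5, 65.7 and 60.1 in vehicle crush against 41.1, 39.6 and 42.5 in vehicle intact libraries. It changed by 0.69 ± 0.11 under IPA (adjusted p = 0.000238) and 0.66 ± 0.11 under vehicle (adjusted p = 0.000299), with no overlap of crush and intact libraries. Oas2 was at 1.46, 1.66 and 1.45 in IPA crush and 1.01, 0.966 and 0.683 in IPA intact libraries, and at 1.29, 1.67 and 1.00 in vehicle crush and 0.597, 1.02 and 0.844 in vehicle intact libraries. The vehicle groups overlapped by 1 library each, and Oas2 changed by 0.55 ± 0.15 under IPA (adjusted p = 0.00961) and 0.46 ± 0.15 under vehicle (adjusted p = 0.0235). Oas3 changed by 0.38 ± 0.21 under IPA and 0.31 ± 0.21 under vehicle and did not pass; 55 reads in its fullest library limit what could be seen.

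Of the 7 other effectors, Ifi44 and Rsad2 rose under both treatments, Bst2 under vehicle, and Cmpk2 fell under both. Among all genes, 21.2% rose and 22.5% fell under IPA, and 23.6% rose and 24.4% fell under vehicle. Ifi44, an interferon-induced antiviral protein, showed the largest change of the 35 under vehicle. Ifi44 was at 2.75, 3.29 and 4.69 in IPA crush and 1.62, 1.54 and 0.925 in IPA intact libraries, and at 4.32, 3.05 and 3.08 in vehicle crush and 0.925, 1.29 and 1.14 in vehicle intact libraries. Crush and intact libraries did not overlap, and the change was 1.12 ± 0.19 under IPA (adjusted p = 0.000290) and 1.29 ± 0.19 under vehicle (adjusted p = 7.84e-05). Rsad2 encodes viperin, an enzyme that makes a nucleotide analogue which ends viral RNA chains. Rsad2 had 11.02, 12.3 and 20.2 in IPA crush and 11.72, 9.79 and 9.96 in vehicle crush libraries, against 7.52, 8.06 and 5.82 in IPA intact and 5.80, 6.85 and 6.60 in vehicle intact libraries. It changed by 0.94 ± 0.18 under IPA (adjusted p = 0.000727) and 0.67 ± 0.18 under vehicle (adjusted p = 0.00705), and every crush library was above every intact one. Bst2 (tetherin) ties budding virions to the cell surface. In IPA crush libraries Bst2 stood at 12.5, 13.8 and 13.8, against 9.63, 14.3 and 7.03 in IPA intact libraries, and in vehicle crush libraries at 11.4, 12 and 10.7, against 5.26, 7.17 and 8.12 in vehicle intact libraries. IPA intact replicate 2 was above all 6 crush libraries, and the change was 0.41 ± 0.19 under IPA (adjusted p = 0.0973) and 0.71 ± 0.19 under vehicle (adjusted p = 0.00750).

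Cmpk2 encodes a mitochondrial nucleotide kinase and lies next to Rsad2 on chromosome 12, on the opposite strand, with 12751 bases between them; in other settings interferon often induces both. Values of Cmpk2 were 21.1, 22.9 and 24.4 in IPA crush against 31.4, 32.5 and 28.6 in IPA intact libraries, and 25.5, 17.99 and 19.2 in vehicle crush against 29.1, 32.5 and 31.3 in vehicle intact libraries. All 6 crush libraries were below all 6 intact ones, the reverse of Rsad2, and the change was -0.43 ± 0.11 under IPA (adjusted p = 0.00450) and -0.57 ± 0.11 under vehicle (adjusted p = 0.000511). Of the remaining effectors, Gbp2 and Gbp3, GTPases that attack the vacuoles of intracellular pathogens, did not pass. Gbp2 was at 14.9, 14.3 and 12.4 in vehicle crush against 6.03, 8.06 and 9.35 in vehicle intact libraries, without overlap, and changed by 0.81 ± 0.38 (adjusted p = 0.10). In the IPA intact libraries it was at 8.59, 27.6 and 6.05, and the 1 high value, that of replicate 2, exceeded every crush library of either treatment. Samd9l, an inhibitor of viral translation, had an interval of -0.15 to 0.44 under IPA and -0.073 to 0.51 under vehicle.

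**Figure D3:**
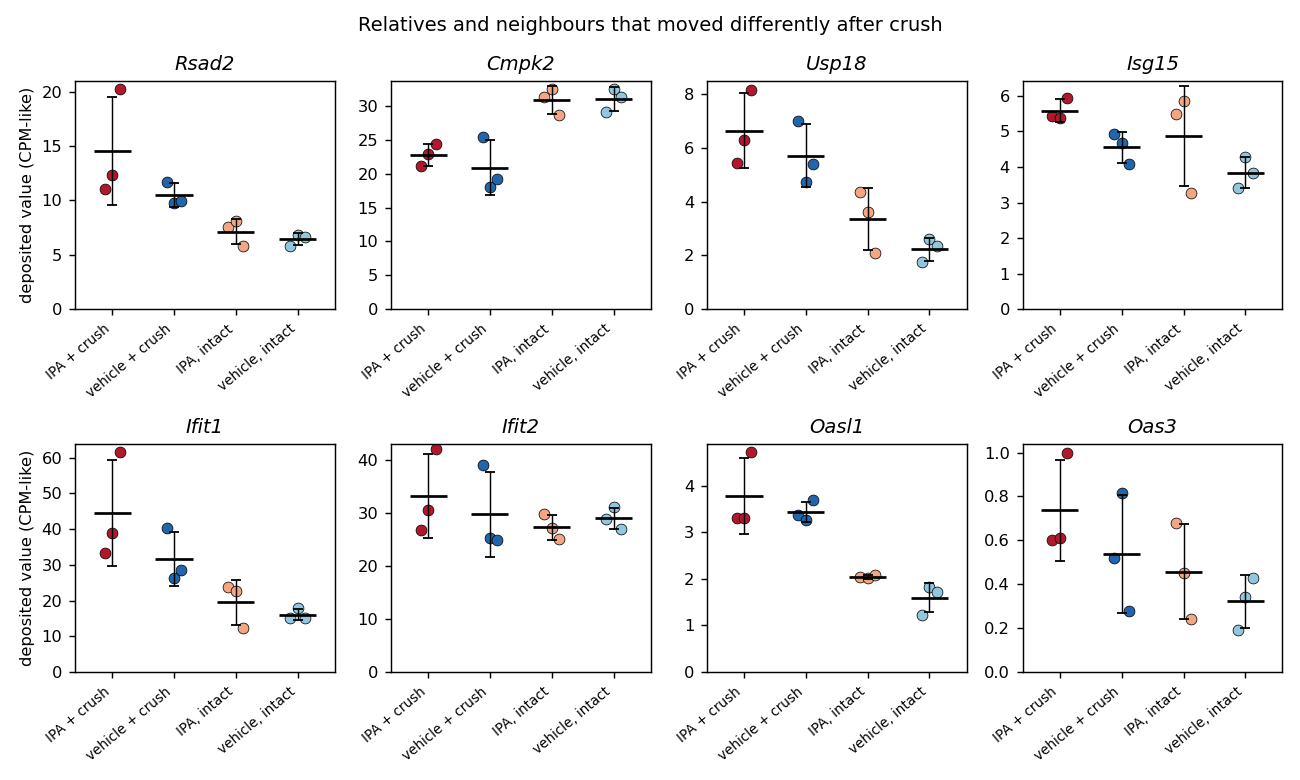
Each panel plots the CPM-like value of 1 gene by library (points) in the 4 groups, with the group mean (thick line) and SD (error bar, n = 3). Rsad2 is higher and its neighbour Cmpk2 lower after crush. Usp18, Ifit1 and Oasl1 are higher after crush, while for Isg15, Ifit2 and Oas3 crush and intact libraries of the same treatment overlap.

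The upstream sequence of 6 of these genes is shown because they passed under both treatments and had an entry among the RefSeq promoters: the 5 with the largest mean rise, and Cmpk2. Each line gives the 250 bases before the RefSeq start site, 5′ to 3′ on the gene's strand, on build GRCm38.p6. Capitals mark matches to GAAANNGAAA on either strand, the core of the interferon-stimulated response element.
Ifi44: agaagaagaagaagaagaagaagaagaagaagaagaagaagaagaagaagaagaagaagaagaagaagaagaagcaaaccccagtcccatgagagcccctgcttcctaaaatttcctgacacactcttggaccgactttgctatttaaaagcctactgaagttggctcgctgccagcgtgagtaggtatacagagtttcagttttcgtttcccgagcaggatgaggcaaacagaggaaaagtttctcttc
Ifit1: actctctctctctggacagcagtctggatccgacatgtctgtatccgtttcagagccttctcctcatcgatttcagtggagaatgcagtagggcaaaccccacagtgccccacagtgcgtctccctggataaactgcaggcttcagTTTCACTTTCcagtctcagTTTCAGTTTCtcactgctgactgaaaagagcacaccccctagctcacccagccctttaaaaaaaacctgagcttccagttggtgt
Irf7: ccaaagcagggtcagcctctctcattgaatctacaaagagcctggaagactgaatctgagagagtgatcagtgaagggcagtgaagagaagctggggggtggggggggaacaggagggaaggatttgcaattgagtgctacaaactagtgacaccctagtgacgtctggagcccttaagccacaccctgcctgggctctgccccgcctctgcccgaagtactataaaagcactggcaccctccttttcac
Oasl1: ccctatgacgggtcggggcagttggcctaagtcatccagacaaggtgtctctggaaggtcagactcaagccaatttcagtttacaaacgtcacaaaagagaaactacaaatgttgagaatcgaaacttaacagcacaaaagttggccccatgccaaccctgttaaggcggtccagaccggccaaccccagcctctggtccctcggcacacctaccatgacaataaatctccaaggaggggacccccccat
Rsad2: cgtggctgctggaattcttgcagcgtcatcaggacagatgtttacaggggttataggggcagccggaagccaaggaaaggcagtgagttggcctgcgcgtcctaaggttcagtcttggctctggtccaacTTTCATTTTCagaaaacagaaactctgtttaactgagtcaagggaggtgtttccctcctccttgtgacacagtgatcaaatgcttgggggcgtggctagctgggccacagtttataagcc
Cmpk2: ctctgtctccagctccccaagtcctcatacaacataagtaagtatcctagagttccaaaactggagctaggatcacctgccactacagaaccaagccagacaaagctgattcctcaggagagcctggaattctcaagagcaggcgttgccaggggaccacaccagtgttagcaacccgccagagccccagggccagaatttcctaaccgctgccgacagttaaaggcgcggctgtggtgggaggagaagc

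These windows lie at chr3:151749911-151750160 (minus strand) for Ifi44, chr19:34640639-34640888 (plus) for Ifit1 and chr7:141266425-141266674 (minus) for Irf7. They lie at chr5:114922990-114923239 (plus) for Oasl1, chr12:26456453-26456702 (minus) for Rsad2 and chr12:26468965-26469214 (plus) for Cmpk2. Ifit1 had 2 matches, which began 104 and 85 bases before the start site, and Rsad2 had 1, which began 120 bases before it. The core was not spelled out in the other 4 windows. Of the 35 genes, 26 had a RefSeq promoter here, and 9 of the 26 held the core in these 250 bases: Bst2, Gbp2, Gbp3, Ifit1, Ifit3, Isg15, Oas3, Rsad2 and Stat2. The core stood in 3.46% of all genes with a promoter. Of the 13 genes that rose under vehicle and had a promoter, 4 held it, and of the 13 others 5 did. The gamma activated site TTCNNNGAA, read the same on both strands, was in 3 of 26 (Bst2, Eif2ak2 and Ifit2) and in 8.13% of all genes; in Bst2 it overlapped the first motif. Only these letters in these windows were searched.

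Of the 4 genes of Isg15 conjugation, Usp18, Herc6 and Trim25 rose under both treatments and Isg15 did not pass. Across all genes, 21.2% rose under IPA and 23.6% under vehicle. Usp18 removes Isg15 from proteins and also blocks the interferon receptor by binding Ifnar2. Values of Usp18 were 5.44, 6.30 and 8.16 in IPA crush against 4.36, 3.61 and 2.11 in IPA intact libraries, and 7.002, 4.72 and 5.39 in vehicle crush against 1.75, 2.60 and 2.33 in vehicle intact libraries. Crush libraries were above intact ones without overlap, and the change was 0.92 ± 0.21 under IPA (adjusted p = 0.00337) and 1.18 ± 0.21 under vehicle (adjusted p = 0.000461). Isg15 itself is the small ubiquitin-like protein that the system attaches. Isg15 was at 5.42, 5.38 and 5.95 in IPA crush and 5.50, 5.84 and 3.27 in IPA intact libraries, and at 4.91, 4.67 and 4.07 in vehicle crush and 3.41, 4.27 and 3.84 in vehicle intact libraries. IPA intact replicates 1 and 2 were within the IPA crush range, and the change was 0.22 ± 0.16 under IPA (adjusted p = 0.296) and 0.22 ± 0.16 under vehicle (adjusted p = 0.272), with intervals of -0.13 to 0.56 and -0.12 to 0.56.

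Herc6 is the main Isg15 ligase of mice, and Trim25 is a ubiquitin ligase that activates Ddx58. Herc6 had 4.63, 6.09 and 7.13 in IPA crush and 6.88, 5.52 and 4.97 in vehicle crush libraries, against 4.05, 4.77 and 3.76 in IPA intact and 3.64, 4.38 and 3.94 in vehicle intact libraries. It changed by 0.45 ± 0.15 under IPA (adjusted p = 0.0236) and 0.48 ± 0.15 under vehicle (adjusted p = 0.0149); IPA intact replicate 2 was above IPA crush replicate 1. Values of Trim25 were 31.4, 35.6 and 38.3 in IPA crush against 31.7, 30.4 and 26.8 in IPA intact libraries, and 35.1, 33.8 and 30.7 in vehicle crush against 28.6, 29.0 and 27.9 in vehicle intact libraries. Its change was among the smallest that passed, at 0.24 ± 0.079 under IPA (adjusted p = 0.0247) and 0.21 ± 0.079 under vehicle (adjusted p = 0.0394), and under IPA the groups overlapped.

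Parp9 and Dtx3l form a ubiquitin ligase complex, Parp14 adds ADP-ribose to proteins, and Ifi35 is an interferon-induced adaptor. Of these 4, Ifi35 rose under both treatments and Parp9 under vehicle. The share of all genes that rose was 21.2% under IPA and 23.6% under vehicle. Ifi35 was at 12.3, 13.1 and 12.5 in IPA crush and 9.89, 11.3 and 9.89 in IPA intact libraries, and at 11.5, 12.7 and 11.69 in vehicle crush and 9.27, 9.23 and 9.85 in vehicle intact libraries. Crush was above intact in every library, and the change was 0.27 ± 0.071 under IPA (adjusted p = 0.00650) and 0.32 ± 0.071 under vehicle (adjusted p = 0.00191). In IPA crush libraries Parp9 stood at 4.72, 5.51 and 6.93, against 5.26, 5.24 and 4.75 in IPA intact libraries, and in vehicle crush libraries at 6.38, 6.10 and 4.70, against 4.45, 4.78 and 3.82 in vehicle intact libraries. Vehicle crush replicate 3 was below vehicle intact replicate 2, and Parp9 changed by 0.14 ± 0.13 under IPA (adjusted p = 0.424) and 0.36 ± 0.13 under vehicle (adjusted p = 0.0426). Parp9 and Dtx3l overlap by 682 bases on opposite strands. Dtx3l had intervals of -0.24 to 0.28 and -0.39 to 0.14 under IPA and vehicle, and Parp14 of -0.24 to 0.28 and -0.10 to 0.42.

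The remaining 3 genes are Xaf1, which promotes apoptosis by binding an inhibitor of caspases, Rtp4, a Golgi chaperone of membrane receptors, and Lgals3bp, a secreted glycoprotein that binds galectins. Xaf1 had 12.2, 13.99 and 17.5 in IPA crush and 12.9, 14.1 and 13.2 in vehicle crush libraries, against 9.06, 10.6 and 8.53 in IPA intact and 7.11, 7.64 and 9.07 in vehicle intact libraries. Xaf1 was higher in each crush library than in any intact one, by 0.60 ± 0.12 under IPA (adjusted p = 0.00120) and 0.73 ± 0.12 under vehicle (adjusted p = 0.000231). Rtp4 was at 3.598, 4.34 and 5.89 in IPA crush and 4.30, 4.14 and 3.09 in IPA intact libraries, and at 4.79, 4.30 and 3.81 in vehicle crush and 2.58, 3.22 and 2.71 in vehicle intact libraries. The vehicle groups did not overlap, while IPA intact replicates 1 and 2 lay above IPA crush replicate 1, and Rtp4 changed by 0.22 ± 0.16 under IPA (adjusted p = 0.274) and 0.52 ± 0.16 under vehicle (adjusted p = 0.0135). Lgals3bp changed by 0.031 ± 0.088 under IPA and 0.041 ± 0.088 under vehicle (intervals -0.16 to 0.22 and -0.15 to 0.23), and did not pass.

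The difference between the change under IPA and the change under vehicle was tested for every gene. No gene of the 35 passed in limma, edgeR or DESeq2, and none had an unadjusted p under 0.05 in limma, where 2.1% of all genes did, and 0.0% passed after adjustment. The estimate was above 0 in 14 of 35, against 47.6% of all genes. The smallest was that of Zbp1, a difference of -0.64 ± 0.34 (unadjusted p = 0.0784, adjusted p = 1.00). The genes that passed under vehicle alone are therefore not shown to respond differently under IPA.

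The interferons themselves were close to absent from these libraries. Of 21 interferon genes, 16 had no read in any library, and all 21 together had 13 of 603774135 reads. Ifnb1 had 1 read, the 13 Ifna genes had 3, Ifnk had 4, and Ifng had 5 spread over 4 libraries. None was tested. A gene with no read in a library may still have up to 3 reads' worth, or 0.0391 to 0.0597 CPM-like units by library, on counting error alone.

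Of 9 receptor and kinase genes, 3 rose and 1 fell under IPA and 4 rose under vehicle. Among all genes tested, 21.2% rose and 22.5% fell under IPA, and 23.6% rose and 24.4% fell under vehicle. Ifnar2, the receptor subunit that Usp18 binds, rose by 0.34 ± 0.066 under IPA (adjusted p = 0.000945) and 0.34 ± 0.066 under vehicle (adjusted p = 0.000709). Il10rb, a subunit shared by the interferon lambda receptor, rose by 0.35 ± 0.067 under IPA (adjusted p = 0.000840) and 0.35 ± 0.067 under vehicle (adjusted p = 0.000722), and Jak2, a kinase of the interferon gamma receptor, by 0.39 ± 0.074 under IPA (adjusted p = 0.000744) and 0.38 ± 0.074 under vehicle (adjusted p = 0.000852). Ifnlr1, the lambda-specific subunit, passed lower under IPA (-0.47 ± 0.18, adjusted p = 0.0467), and changed by -0.28 ± 0.18 under vehicle (adjusted p = 0.221). Ifnar1, Jak1 and Tyk2 did not pass under either treatment.

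Of 6 related transcription factors, 2 rose and 1 fell under IPA, and 3 rose and 1 fell under vehicle. The shares of all genes were 21.2% rising and 22.5% falling under IPA, and 23.6% and 24.4% under vehicle. Stat3, which serves many cytokines of the interleukin-6 type, rose by 0.34 ± 0.040 under IPA (adjusted p = 1.15e-05) and 0.35 ± 0.040 under vehicle (adjusted p = 6.99e-06). Irf8, a factor of macrophages and dendritic cells, rose by 0.55 ± 0.20 under IPA (adjusted p = 0.0399) and 0.74 ± 0.20 under vehicle (adjusted p = 0.00766). Irf2, which opposes Irf1 on the response element, fell by 0.25 ± 0.049 under IPA (adjusted p = 0.000989) and 0.32 ± 0.049 under vehicle (adjusted p = 0.000118).

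Of 20 tested nucleic acid sensing genes outside the 35, 9 rose and 2 fell under IPA, and 12 rose and 2 fell under vehicle. For this list and the negative regulators below, 21.2% of all genes rose and 22.5% fell under IPA. Under vehicle 23.6% of all genes rose and 24.4% fell. Ifi204, a DNA sensor of the interferon-inducible Ifi200 family, rose by 1.79 ± 0.15 under IPA (adjusted p = 5.30e-07) and 1.61 ± 0.15 under vehicle (adjusted p = 1.38e-06). Tmem173, which encodes the adaptor STING, rose by 1.74 ± 0.14 under IPA (adjusted p = 3.19e-07) and 1.53 ± 0.14 under vehicle (adjusted p = 9.70e-07), and Aim2, a DNA sensor of the inflammasome, by 1.18 ± 0.13 under IPA (adjusted p = 7.42e-06) and 1.38 ± 0.13 under vehicle (adjusted p = 1.49e-06). Tlr7, an endosomal receptor for single-stranded RNA, rose by 0.79 ± 0.15 under IPA (adjusted p = 0.000850) and 0.80 ± 0.15 under vehicle (adjusted p = 0.000728). Among the falls, Traf3, an adaptor of interferon induction, changed by -0.27 ± 0.051 under IPA (adjusted p = 0.000631) and -0.23 ± 0.051 under vehicle (adjusted p = 0.00232). Of 8 negative regulators, Usp18 among them, 5 rose and 1 fell under IPA, and 5 rose and 2 fell under vehicle. Socs3 and Socs1, feedback inhibitors of Jak kinases, rose by 1.81 ± 0.11 and 1.21 ± 0.16 under IPA (adjusted p = 1.65e-08 and 3.46e-05) and by 1.78 ± 0.11 and 1.25 ± 0.16 under vehicle (adjusted p = 1.69e-08 and 2.18e-05). Cish, of the same family, rose by 0.69 ± 0.10 under IPA (adjusted p = 9.20e-05) and 0.88 ± 0.10 under vehicle (adjusted p = 8.94e-06).

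Macrophage genes rose more than the interferon response genes did. Of 18 macrophage markers, none of them at 0 in any library, 17 rose under IPA and 18 under vehicle. The median log2 changes of the macrophage markers were 1.34 and 1.43. For these and the other cell types below, 21.2% of all genes rose and 22.5% fell under IPA. Under vehicle 23.6% of all genes rose and 24.4% fell. The summed level of the macrophage markers was 235.8 to 292.7 CPM-like units in IPA crush and 248.4 to 275.9 in vehicle crush libraries. It was 77.3 to 114.8 in IPA intact and 82.0 to 101.9 in vehicle intact libraries. The summed level of the 35 genes was 551.3 to 744.5 in IPA crush, 538.4 to 629.0 in vehicle crush, 429.6 to 564.8 in IPA intact and 448.1 to 481.4 in vehicle intact libraries. The part of the macrophage genes in the rise of the 35 genes was not tested. Among vehicle crush libraries the orders differed: replicate 1 had the highest median of the 35 genes (0.46) and the lowest of the macrophage markers (1.24). They differed among vehicle intact libraries too, where replicate 2 had the highest median of the 35 genes (0.10) and the lowest macrophage median (-0.10). Among IPA libraries they ran together, with IPA crush replicate 3 highest and IPA intact replicate 3 lowest in its group on both measures. Neutrophil markers were also highest in IPA crush replicate 3, at a summed 157.4 against 38.6 to 66.2 in the other 2 libraries of that group. Of 9 neutrophil markers, 4 rose under IPA and 1 under vehicle, with median changes of 1.23 and 0.59. Of 6 tested monocyte and dendritic cell markers, 3 rose and 1 fell under each treatment. Of 8 neuron markers, 2 rose and 4 fell under IPA, and 2 rose and 5 fell under vehicle. Of 6 satellite glia markers, 2 rose and 2 fell under IPA, and 2 rose and 1 fell under vehicle. None of 6 Schwann cell markers passed under either treatment. Of 6 fibroblast markers, 2 rose under each treatment and 1 fell under IPA. Of 6 endothelial markers, 1 rose under each treatment. Of 4 tested plasmacytoid dendritic cell markers, 1 rose under each treatment and 1 fell under IPA. Of 2 tested lymphoid markers, 1 fell under each treatment, and none of 5 erythroid markers passed. None of 6 skeletal muscle markers passed, but all 6 had positive estimates, with medians of 0.97 under IPA and 1.00 under vehicle. Estimates were positive in 47.7% of all genes under IPA and 49.4% under vehicle. The part of these cell types was not tested either.

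**Figure D4:**
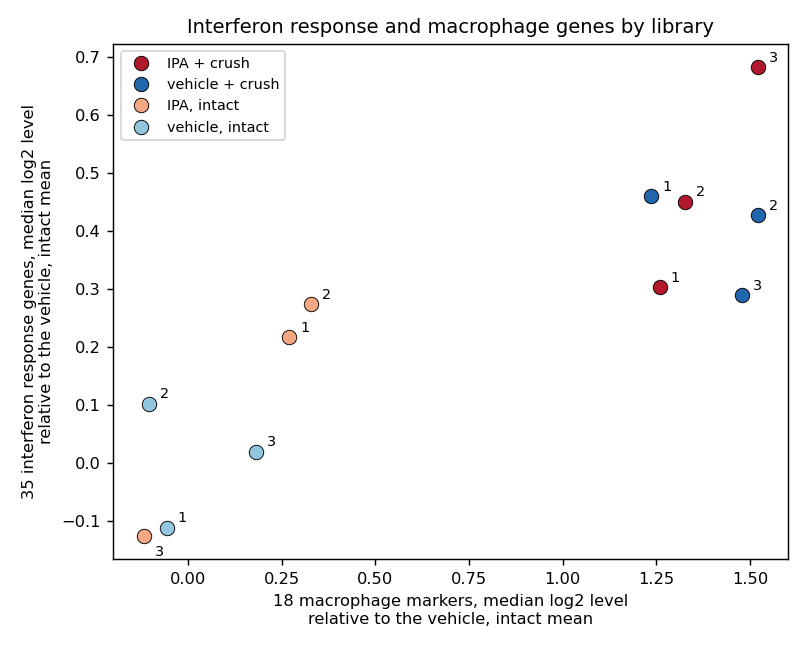
Each point is 1 library, labelled with its replicate number: the horizontal axis is the median log2 level of 18 macrophage markers and the vertical axis that of the 35 interferon response genes, each relative to the vehicle intact mean. Crush libraries lie between 1.24 and 1.52 on the macrophage axis and between 0.29 and 0.68 on the other, and intact libraries lie at or below 0.33 and 0.27.

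The second question is whether IPA changed the genes. With the nerve intact, no gene of the 35 passed for IPA against vehicle in limma, edgeR or DESeq2, and 0.0% of all genes passed in limma. In limma, 5 of the 35 had an unadjusted p under 0.05, all higher under IPA, a share close to the 12.2% of all genes. The change was above 0 in 29 of 35 genes, against 52.9% of all genes, with a median of 0.19 where that of all genes was 0.0089. That median was 0.092 without IPA intact replicate 1, 0.097 without IPA intact replicate 2, 0.11 without vehicle intact replicate 1 and 0.26 without IPA intact replicate 3. The 3 IPA libraries lay above the 3 vehicle libraries in 2 genes, Ifi35 and Oasl1, against 12.7% of all genes, and below them in none, against 12.5%. These comparisons share the intact libraries with the comparisons of crush above.

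The 5 genes with the smallest p were Bst2, Rtp4, Lgals3bp, Usp18 and Oasl1. Bst2 had 9.63, 14.3 and 7.03 in IPA intact against 5.26, 7.17 and 8.12 in vehicle intact libraries, an overlap at IPA replicate 3, and a change of 0.52 ± 0.19 (unadjusted p = 0.0168, adjusted p = 0.408). Rtp4 had 4.30, 4.14 and 3.09 in IPA intact against 2.58, 3.22 and 2.71 in vehicle intact libraries, and changed by 0.37 ± 0.16 (unadjusted p = 0.0328). Lgals3bp had 71.6, 77.6 and 62.5 in IPA intact against 63.1, 55.8 and 64.9 in vehicle intact libraries, a change of 0.20 ± 0.088 (unadjusted p = 0.0397). In all 3 genes, IPA replicate 3 lay within the vehicle range. Usp18 had 4.36, 3.61 and 2.11 in IPA intact against 1.75, 2.60 and 2.33 in vehicle intact libraries, with a change of 0.47 ± 0.21 (unadjusted p = 0.0482). Oasl1 had 2.03, 2.01 and 2.08 in IPA intact against 1.23, 1.82 and 1.72 in vehicle intact libraries, without overlap, and changed by 0.29 ± 0.13 (unadjusted p = 0.0483). The adjusted p of all 5 was 0.408. With libraries weighted by their spread gene by gene, a step chosen after seeing the data, 7 of the 35 passed as higher under IPA, these 5 among them, a share no higher than the 21.0% of all genes that passed.

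After crush, no gene of the 35 passed for IPA against vehicle in limma, edgeR or DESeq2, again with 0.0% of all genes in limma, and 2 had an unadjusted p under 0.05 in limma, against 8.06% of all genes. The change was above 0 in 32 of 35 genes, against 49.1% of all genes, with a median of 0.14 where that of all genes was -0.0021. Without IPA crush replicate 3 the median was 0.031, and without IPA crush replicate 1 it was 0.22. It was 0.080 without vehicle crush replicate 3. The 3 IPA libraries were above the 3 vehicle libraries in 4 genes, Bst2, Irf9, Isg15 and Lgals3bp, against 5.86% of all genes, and below them in none, against 5.58%.

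The 5 genes with the smallest p after crush were Rsad2, Lgals3bp, Dhx58, Ifit1 and Irf9. Rsad2 had 11.02, 12.3 and 20.2 in IPA crush against 11.72, 9.79 and 9.96 in vehicle crush libraries, overlapping, with a change of 0.41 ± 0.18 (unadjusted p = 0.0388, adjusted p = 0.604). Lgals3bp had 65.3, 69.9 and 81.2 in IPA crush against 61.9, 64.3 and 62.6 in vehicle crush libraries, without overlap, and changed by 0.19 ± 0.088 (unadjusted p = 0.0489). Dhx58, a helicase that tunes the RNA sensors, had 2.05, 2.73 and 3.71 in IPA crush against 1.51, 2.23 and 2.48 in vehicle crush libraries, a change of 0.36 ± 0.19 (unadjusted p = 0.0738). For all 3 genes the highest library was IPA crush replicate 3. Ifit1 changed by 0.46 ± 0.25 and Irf9 by 0.15 ± 0.083 (unadjusted p = 0.0823 and 0.0904). Of the 4 genes with the largest mean rise after crush, the interval of this difference was -0.39 to 0.43 for Ifi44, -0.10 to 0.61 for Mx2, -0.067 to 0.99 for Ifit1 and -0.26 to 0.66 for Usp18, each of which includes 0. For Stat2 the interval was -0.059 to 0.23, and for Ifi35 -0.079 to 0.23.

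**Figure D5:**
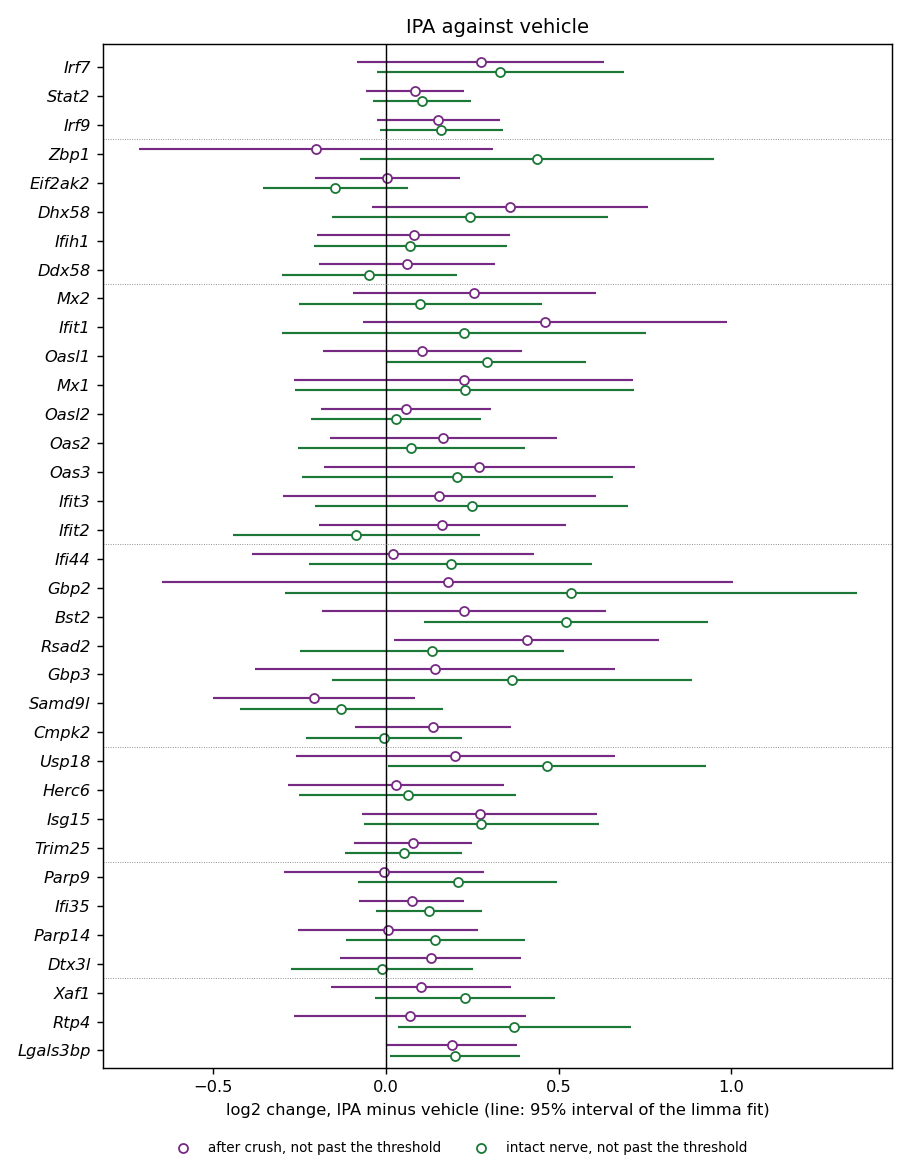
Each row is 1 gene, the horizontal axis is the log2 change of IPA minus vehicle, and lines are 95% intervals of the limma estimate, in purple after crush and in green with the nerve intact. All points are open because none passed at an adjusted p under 0.05; most lie right of 0.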

How the data were processed

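Poly(A) RNA, of integrity above 8.0 per the labels' protocols, was read as pairs of 75 bases from directional libraries. The submitters' processing notes list the build mm10 and the tools FastQC 0.10.1, STAR 2.7.0, R 3.5.0, limma 3.38.3 and edgeR 3.24.3. How reads were counted, with which annotation and strand setting, is not given in the sources used here. Deposited values, named FPKM by the authors, are CPM-like: every value was a whole multiple of 1 step per library (tolerance 1e-06), and columns sum to 803444 to 818767. That step gave back the read counts, 40938034 to 62501969 per library.

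The test was limma 3.58.1 in R 4.3.3 on log2(value + 0.5) of the 15603 genes that reached 0.5 in 3 or more of the 12 libraries, with an intensity trend, 1 fit of 4 groups, 8 residual degrees of freedom and Benjamini-Hochberg adjustment over all genes (threshold 0.05). Alternatives were other pseudocounts, filters, scalings and library weights, a replicate block, libraries left out, and edgeR 4.0.16 and DESeq2 1.42.0 on the recovered reads. Procedures were tested on simulated data. Of the 35 genes, those past the threshold were named with full values, or the 5 with the smallest p where fewer than 5 passed; of other lists, up to 4 genes past the threshold. The genes and lists were chosen with earlier results of these data known. 1 further gene of these lists is not reported here. Positions and overlaps come from GENCODE M21, promoters from RefSeq (GRCm38.p6).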

Additional observations from a re-analysis of the deposited data

How the results depend on the processing

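Leaving out 1 library at a time gave 14 to 19 of the 35 genes called for crush under IPA, where 36.4% to 41.8% of all genes were called. Under vehicle it gave 14 to 20, where 40.6% to 53.3% of all genes were called. The median change ran from 0.20 to 0.39 under IPA, from 0.31 to 0.48 under vehicle, from 0.031 to 0.22 for IPA against vehicle after crush, from 0.092 to 0.26 with the nerve intact and from -0.11 to 0.054 for the difference between treatments; the calls of these last 3 stayed at 0. Over other pseudocounts, filters, scalings, thresholds, count models and sample sets, 15 to 18 genes were called under IPA and 16 to 23 under vehicle. The share of all genes called ran from 22.6% to 51.0% under IPA and from 25.5% to 55.2% under vehicle. None of the 35 was called for IPA against vehicle or for the difference. No estimate of a named gene changed sign past the threshold. edgeR and DESeq2 on recovered reads each called 17 under IPA, where they called 44.5% and 45.1% of all genes. Each called 21 under vehicle, where they called 48.0% and 48.4% of all genes. Same-numbered libraries did not deviate together as a set (correlations -0.252 to 0.286, median -0.0354, 4 of 18 pairs over 0.1). With 3 libraries per group these correlations cannot exclude a pairing by number, and the labels state none. With the replicate block, 17 genes were called under IPA and 18 under vehicle, where 41.8% and 46.2% of all genes were called. Library weights estimated by the default method, which did not converge and gave 1 library a weight of 42.2, called 13 genes for IPA against vehicle after crush (25.6% of all genes), 8 with the nerve intact (26.7%) and 2 for the difference (13.6%). For crush, the default weights called 21 genes (60.0% of the 35) under IPA, against 71.5% of all genes. Under vehicle the default weights called 22 genes (62.9%), against 67.6% of all genes. Weights estimated gene by gene, chosen after seeing the data, called 0, 7 and 0, against 2.08%, 21.0% and 0.0128% of all genes. For crush they called 18 genes, 51.4% of the 35, under each treatment. Of all genes, they called 63.1% under IPA and 61.7% under vehicle. Without replicate 3 of both IPA groups, also chosen after seeing the data, 10 genes were called for crush under IPA, 28.6% against 35.2% of all genes, with a median of 0.060. The cause of these shifts was not tested. Between 10 and 55 reads for Oas3 limit what could be seen in the lowest gene.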

Other observations

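Genes listed here as interferon gamma targets stood out in 1 library, IPA intact replicate 2. Whether they answer interferon gamma more than type I interferon was not tested. Across 20 such genes, Gbp2 and Gbp3 among them, the summed level was 125.7, 224.5 and 93.4 CPM-like units in IPA intact replicates 1 to 3, against 102.8, 115.5 and 110.2 in vehicle intact replicates. The crush libraries held 130.5, 150.5 and 190.2 under IPA and 148.4, 135.0 and 124.2 under vehicle, so the highest of the 12 sums came from an uninjured group. Gbp2 was at 8.59, 27.6 and 6.05 in IPA intact and 6.03, 8.06 and 9.35 in vehicle intact libraries, and Gbp3 at 8.98, 14.6 and 5.34 in IPA intact and 5.97, 7.34 and 7.23 in vehicle intact libraries. Iigp1, a GTPase of immunity to intracellular parasites, was at 4.02, 9.57 and 2.36 in IPA intact and 2.25, 3.85 and 2.56 in vehicle intact libraries. Cxcl9, a chemokine that draws T cells, was at 0.362, 2.51 and 0.171 in IPA intact and 0.308, 0.436 and 0.579 in vehicle intact libraries. Each of these was highest in IPA intact replicate 2, but not all of the 20 were. Socs1 was at 2.27 there and 6.10 in IPA crush replicate 1, and Icam1 at 2.08 there and 2.42 in IPA crush replicate 3. Cd274, Igtp and Psmb8 were also highest in IPA crush replicate 3. Iigp1 and Cxcl9 passed in no comparison and are named for their values in this library, outside the rule used for other lists. All 20 estimates for IPA against vehicle with the nerve intact were above 0, against 52.9% of all genes. Their median was 0.36, and none passed in limma. By library, the median log2 level of the 20 genes relative to the vehicle intact mean was 0.17, 0.98 and -0.23 in IPA intact replicates 1 to 3. In vehicle intact replicates 1 to 3 it was -0.11, 0.058 and -0.016, so IPA intact replicate 3 lay below all of them. Markers of lymphoid cells, of which 2 of 10 reached the filter, also had their highest sum there, at 4.53, where the other 11 libraries held 1.93 to 3.85. The Ifng transcript itself had 5 reads over all 12 libraries.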
